A study of Mus musculus with 24 samples.

Results

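10 genes of the ventral neural tube were followed here, Foxa2, Nkx2-2, Olig1, Olig2, Nkx6-1, Nkx6-2, Pax6, Irx3, Dbx1 and Dbx2. They were chosen by name as transcription factors that mark successive progenitor domains from the floor plate to the intermediate neural tube, and all 10 were found among the 22889 gene entries measured. In the embryonic neural tube, Sonic hedgehog secreted by the notochord and floor plate divides ventral progenitors into the domains p3, pMN, p2, p1 and p0. Pairs of factors that repress each other set the borders, and motor neurons arise from pMN, which Olig2 marks. Factors induced by hedgehog (Nkx2-2, Olig2, Nkx6-1, Nkx6-2) lie ventrally, and factors that it represses (Pax6, Irx3, Dbx1, Dbx2) lie more dorsally.

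The samples came from motor neuron cultures derived from mouse embryonic stem cells and sorted by GFP fluorescence into positive and negative fractions, with 6 samples in each of 4 groups. Oculomotor (OMN) cultures carried an Islet1-GFP reporter and a Phox2a transgene driven by the nestin enhancer, which is active in neural progenitors, and were patterned for 5 days with 250 nM of the Smoothened agonist SAG and 100 ng/ml FGF8. Spinal (SC) cultures carried an Hb9-GFP reporter and were patterned for 5 days with 500 nM SAG and 100 nM retinoic acid. Cell line, reporter, transgene, SAG dose and the other factor change together between the cultures, so their parts in a difference cannot be told apart. Isl1 and Mnx1 (Hb9) mark postmitotic motor neurons, so the GFP-negative fractions hold the remaining cells of each culture, and in these bulk samples fewer cells of a type and less RNA per cell cannot be told apart. Nothing in the sample descriptions says that replicates were separate cultures, so p-values measure only the spread between these samples.

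Several libraries stood apart. The number of reads, recovered from the steps of the RPKM values, ran from 752529 to 7675428 per sample, and samples numbered 5 and 6 (4822576 to 7675428) were deeper than samples numbered 1 to 4 (752529 to 4642207). Isl1 was 141 to 369 RPKM in OMN GFP-positive samples and at most 1.87 RPKM in OMN GFP-negative samples. Phox2a was 5.83 to 53.4 RPKM in OMN GFP-positive samples and at most 8.59 RPKM in SC GFP-positive samples. The SC sample labelled GFP-positive replicate 4 had 7.63 RPKM of Isl1 and 36.4 RPKM of Tubb3, a neuronal tubulin, where the mean of the other 5 SC GFP-positive samples was 87.6 and 371 RPKM. The sample labelled SC GFP-negative replicate 4 had 69.4 RPKM of Mnx1 (43.1 RPKM in the GFP-positive sample of that number). These 2 libraries correlated at r = 0.966 across genes. The GFP-positive library correlated at 0.8125 to 0.8735 with the other samples of its group, while OMN GFP-negative replicates 5 and 6 correlated at 0.9857. Other pairs of a GFP-positive and a GFP-negative sample were not computed. The fits that hold SC samples were repeated without these 2 libraries, and the values without them stand beside the results below. In SC GFP-negative replicate 2, 3 gene models (Gm10800, Gm10801 and Gm21738) took 68.8% of the summed RPKM.

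Nkx6-1 was the most abundant of the 10 factors in all 6 OMN GFP-positive samples, where it made up 72.6% to 88.5% of their summed RPKM. It also led in 5 of 6 SC GFP-positive samples, and Foxa2 led in the sixth. In the GFP-negative fractions no factor led throughout: Foxa2 led in 3, Nkx6-1 in 2 and Nkx6-2 in 1 of the OMN samples, and Foxa2, Nkx6-1 and Olig1 led in 2 each of the SC samples. RPKM is scaled to gene length, so these levels can be compared between genes, with a limit for Pax6: its length was the joined exons of all its transcripts (11694 bases, where the other 9 factors had 1907 to 3460), so a shorter transcript in use would give it a higher level. At the other end, Dbx2 never passed 1 RPKM in any of the 24 samples.

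**Figure D1:**
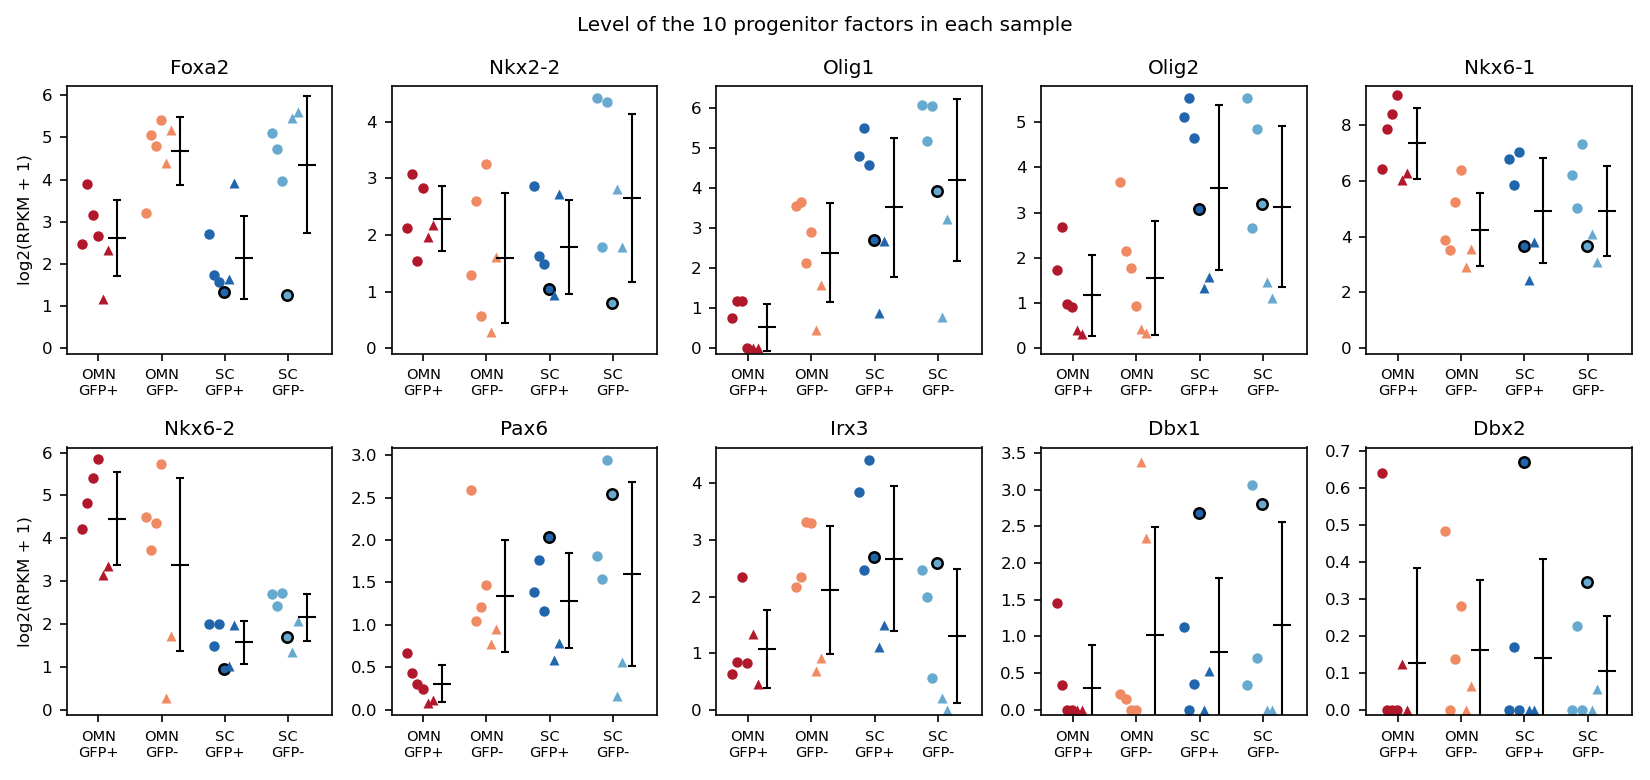
Level of each factor as log2(RPKM + 1) in every sample of the 4 groups (OMN and SC, GFP+ and GFP-); circles are samples numbered 1 to 4, triangles those numbered 5 and 6, black rims the SC samples numbered 4, and bars the mean ± SD of 6 samples, not drawn below 0. Nkx6-2 sits higher in every OMN GFP+ sample (lowest 7.88 RPKM) than in any SC GFP+ sample (highest 3.03 RPKM).

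The genes lie on several chromosomes of the GRCm38 build. Olig2 (chr16:91225457-91228677) and Olig1 (chr16:91269772-91271933) are neighbours on the plus strand, while the relatives Nkx6-1 (chr5:101658139-101664996) and Nkx6-2 (chr7:139579376-139582797) lie on different chromosomes, both on the minus strand. RefSeq promoter sequences (GRCm38.p6, 250 bases before to 50 bases after a start) were at hand for 9 of 10 genes in 12 entries; Olig1 had none. The promoters of the 2 Nkx6 genes, whose values carry the main differences below, and of Olig2, the motor neuron progenitor factor, are printed 5′ to 3′ on the strand of the gene, with any match to the E-box letters CANNTG in capitals.
Nkx6-1 (chr5:101664662-101664961): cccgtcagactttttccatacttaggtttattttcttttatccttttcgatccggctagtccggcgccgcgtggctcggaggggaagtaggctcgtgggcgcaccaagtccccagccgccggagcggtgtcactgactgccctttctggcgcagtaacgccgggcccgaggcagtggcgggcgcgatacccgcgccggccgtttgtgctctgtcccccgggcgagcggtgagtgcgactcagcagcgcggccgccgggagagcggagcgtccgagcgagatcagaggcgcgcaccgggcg
Nkx6-2 (chr7:139582748-139583047): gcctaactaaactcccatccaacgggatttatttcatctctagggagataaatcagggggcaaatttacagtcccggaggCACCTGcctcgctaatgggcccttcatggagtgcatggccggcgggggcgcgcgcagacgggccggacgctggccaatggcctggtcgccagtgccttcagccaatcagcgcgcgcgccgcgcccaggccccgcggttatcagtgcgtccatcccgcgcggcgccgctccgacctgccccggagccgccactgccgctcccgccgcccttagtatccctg
Olig2 (chr16:91225300-91225599): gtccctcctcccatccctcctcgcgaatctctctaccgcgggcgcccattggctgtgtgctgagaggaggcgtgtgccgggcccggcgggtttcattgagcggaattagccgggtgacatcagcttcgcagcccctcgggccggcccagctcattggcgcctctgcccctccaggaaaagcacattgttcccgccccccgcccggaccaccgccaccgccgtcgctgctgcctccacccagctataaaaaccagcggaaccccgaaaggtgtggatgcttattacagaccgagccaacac

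3 sets of letters were searched on both strands. The E-box CANNTG, bound by basic helix-loop-helix factors such as Olig2, was found in 5 of the 12 entries and in 72.3% of all 32851 promoters of that length. The homeodomain letters TAATTA were found in 0 of 12 entries (5.29% of all promoters), and the Gli letters TGGGTGGTC (GACCACCCA on the other strand), for the factors that carry hedgehog signals to genes, in 0 of 12 (0.253%). Among the 3 printed promoters only that of Nkx6-2 held a match.

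Foxa2, the forkhead factor of the floor plate, was higher in the GFP-negative than the GFP-positive fraction of OMN cultures. It was 1.26, 4.96 and 14.0 RPKM (lowest, median, highest) in OMN GFP-positive samples and 8.28, 29.5 and 41.6 RPKM in OMN GFP-negative samples. The ranges overlapped, and the GFP-positive sample was lower in 6 of 6 pairs of the same number. The difference, GFP-positive minus GFP-negative, was −2.06 ± 0.62 (SE) on the log2(RPKM + 1) scale, with a limma adjusted p of 0.0470 and of 0.00566 with same-numbered samples paired. This and Nkx6-1 were the 2 of 10 factors called in that comparison, against 6.15% of all 22179 genes tested, and 4 had an unadjusted p under 0.05, against 18.1% of all genes; with pairing 5 factors were called, and 3644 genes in place of 1364. The Foxa2 call held in 7 of 24 fits that each left out 1 sample (adjusted p up to 0.121) and was lost with samples numbered 1 to 4 alone (adjusted p = 0.324).

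In spinal cultures Foxa2 was 1.51, 2.23 and 14.1 RPKM in GFP-positive samples and 1.39, 29.6 and 47.3 RPKM in GFP-negative samples, and the lowest GFP-negative value was that of number 4. The difference was −2.20 ± 0.62 (SE), with a limma adjusted p of 0.0852. None of the 10 factors was called in this comparison, against 1.23% of all genes, and 2 had an unadjusted p under 0.05, against 10.4% of all genes. Without both samples numbered 4, Foxa2 passed the test (−2.66, limma adjusted p = 0.00392), as it did with pairing (adjusted p = 0.0212), where it was the 1 factor called and 649 genes passed in place of 272. Between cultures it did not pass: the difference OMN minus SC was 0.47 ± 0.53 (SE) in GFP-positive and 0.32 ± 0.62 (SE) in GFP-negative samples (0.30 and −0.29 without those numbered 4).

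Markers of other cells also differed between the fractions. Foxa2 is also a factor of endoderm, and of 11 endoderm and epithelial genes 3 were lower in OMN GFP-positive than GFP-negative samples (none higher) and 6 in the SC comparison (none higher); without both SC samples numbered 4 these were 6 and 7, and in a fit of the 12 SC samples alone 1 was lower between the SC fractions. With all 24 samples, 6.15% of all genes were called between the OMN and 1.23% between the SC fractions. The median difference of the 11 genes was −1.15 and −1.86, where the median of all genes tested was 0 in both. Epcam, an epithelial adhesion protein, fell by 4.30 and the keratin Krt8 by 3.15 in the OMN comparison, and Krt8 fell by 3.87 and Gata6, an endoderm factor, by 3.58 in the SC comparison (by 4.68 and 4.17 without those numbered 4). The summed level of the 11 genes was 0 to 10.1 RPKM in OMN GFP-positive and 23.8 to 142 RPKM in OMN GFP-negative samples, and 1.07 to 74.1 RPKM in SC GFP-positive and 73.8 to 402 RPKM in SC GFP-negative samples. The limits 74.1 and 73.8 RPKM were those of the samples numbered 4, without which the SC ranges were 1.07 to 27.9 and 116 to 402 RPKM. The defining factor Sox17 was at 0 in 5 of 6 samples of each GFP-positive group. Of 9 other floor plate genes, among them Shh and Foxa1, 0 passed in either comparison. Their median difference was also negative, −0.72 in the OMN and −0.43 in the SC comparison. An unadjusted limma p under 0.05 was found for 3 and 1 of them, against 18.1% and 10.4% of all genes. Their summed level was 6.02 to 58.3 RPKM in OMN GFP-positive and 17.2 to 161 RPKM in OMN GFP-negative samples. In SC samples it was 12.9 to 147 RPKM and 16.1 to 266 RPKM. Between the GFP-negative groups 4 of the 11 were lower in OMN than SC samples, among them Gata6 (−2.67 ± 0.43 SE, limma adjusted p = 0.00192) and Gata4 (−2.20 ± 0.40 SE, limma adjusted p = 0.00594); without those numbered 4 these were −3.09 and −2.67, and 5 of the 11 were lower. Of all genes tested, 0.960% were called between the GFP-negative groups. Foxa2 was not called there, with means of 27.4 RPKM in OMN and 27.6 RPKM in SC GFP-negative samples. The part of the other cells in the Foxa2 difference between fractions was not tested.

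Nkx2-2, the homeodomain repressor of p3, varied within each group as much as between them. It was 1.90, 3.45 and 7.46 RPKM in OMN GFP-positive, 0.216, 1.76 and 8.51 RPKM in OMN GFP-negative, 0.914, 1.95 and 6.33 RPKM in SC GFP-positive and 0.737, 4.24 and 20.5 RPKM in SC GFP-negative samples. All 4 ranges overlapped. The largest of its differences between groups was −1.06 ± 0.59 (SE) for OMN minus SC GFP-negative samples (limma adjusted p = 0.522), and −1.43 without those numbered 4. None of the 3 other p3 genes listed (Nkx2-9, Sim1, Uncx) passed in any comparison.

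Olig1 and Olig2, the basic helix-loop-helix factors of pMN, had lower means in the oculomotor than the spinal fractions, but neither difference passed the test. Between the GFP-positive groups that of Olig1 passed in 4 of 10 alternative fits other than leaving out 1 sample, and that of Olig2 in 1. Olig2, which motor neuron progenitors require, was 0.238, 0.917 and 5.46 RPKM in OMN GFP-positive and 1.53, 15.8 and 45.2 RPKM in SC GFP-positive samples. The ranges overlapped because the SC samples numbered 5 and 6 held only 1.53 and 1.98 RPKM. The difference was −2.38 ± 0.75 (SE), with a limma adjusted p of 0.240. It was −3.02 among samples numbered 1 to 4 and −1.10 among those numbered 5 and 6, and −2.47 without the SC sample numbered 4.

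Olig1 was 0, 0.349 and 1.27 RPKM in OMN GFP-positive and 0.832, 14.3 and 44.5 RPKM in SC GFP-positive samples. It was listed at 0 in 3 OMN samples, where 3 reads would have been 0.201 to 0.981 RPKM over the group. The difference was −3.01 ± 0.69 (SE), with a limma adjusted p of 0.0808 that fell to 0.0159 without SC GFP-positive replicate 5; without the SC sample numbered 4 the difference was −3.17 (adjusted p = 0.0938). In the GFP-negative fractions Olig1 was 0.384, 4.95 and 11.5 RPKM in OMN and 0.721, 24.6 and 66.3 RPKM in SC samples, a difference of −1.82 ± 0.81 (SE; limma adjusted p = 0.396), or −1.88 without those numbered 4. No factor was called between the GFP-negative groups, against 0.960% of all genes, and 1 had an unadjusted p under 0.05, against 11.3% of all genes. Within OMN cultures Olig1 was lower in GFP-positive samples in 6 of 6 pairs (−1.87 ± 0.81 SE), with a limma adjusted p of 0.210 and of 0.00254 with pairing.

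Olig factors also mark oligodendrocyte precursors. Of 6 genes of that lineage, 1 was lower in OMN than SC GFP-negative samples, Pdgfra (−1.75 ± 0.43 SE, limma adjusted p = 0.0489), a growth factor receptor of these precursors and of mesenchymal cells. That call held in 1 of 24 fits that each left out 1 sample (adjusted p up to 0.112), and without both SC samples numbered 4 the difference was −2.26. In SC GFP-negative samples Pdgfra had a mean of 7.42 RPKM, while the other precursor markers Sox10, Cspg4 and Gpr17 had means of 0.318, 0.00198 and 0.0973 RPKM. Pdgfra was lower in SC GFP-positive than SC GFP-negative samples (−2.42 ± 0.43 SE, limma adjusted p = 0.00340; −2.91 without those numbered 4). Mbp, a myelin protein, was higher in OMN GFP-positive than GFP-negative samples (1.33 ± 0.33 SE, limma adjusted p = 0.0146). Of all genes tested, 0.960% were called between the GFP-negative groups, 1.23% between the SC and 6.15% between the OMN fractions. The summed level of the 6 genes was at most 22.8 RPKM in any sample. The 2 Olig genes had a Pearson r of 0.853 over the 24 samples, a description over samples that share depth and culture.

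Nkx6-1, a homeodomain repressor of the domains from p3 to p2, was the factor with the largest difference between the OMN fractions. It was 64.9, 159 and 537 RPKM in OMN GFP-positive samples and 6.54, 12.3 and 82.4 RPKM in OMN GFP-negative samples. The GFP-positive sample was higher in 6 of 6 pairs, although the ranges overlapped. The difference was 3.09 ± 0.83 (SE), with a limma adjusted p of 0.0249. It was 3.18 among samples numbered 1 to 4 and 2.92 among those numbered 5 and 6, and the call held in 17 of 24 fits that each left out 1 sample (adjusted p up to 0.0703). With samples numbered 1 to 4 alone the adjusted p was 0.0746.

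In spinal cultures Nkx6-1 was 4.50, 35.1 and 129 RPKM in GFP-positive and 7.64, 24.0 and 160 RPKM in GFP-negative samples. The difference was 0.02 ± 0.83 (SE), with a 95% interval of −1.69 to 1.74, and was also 0.02 without those numbered 4. The step between fractions differed between the cultures by 3.07 ± 1.17 (SE), with a limma adjusted p of 0.471 and of 0.00309 with pairing. Without pairing, 0 of 10 factors were called in this test of the difference, against 0.320% of all genes, and 2 had an unadjusted p under 0.05, against 7.13% of all genes. Between the GFP-positive groups Nkx6-1 was higher in OMN than SC samples by 2.42 ± 0.82 (SE; limma adjusted p = 0.277), with ranges that overlapped, or by 2.16 without the SC sample numbered 4.

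Nkx6-2, the relative of Nkx6-1, was the factor called between the GFP-positive groups. It was 7.88, 22.4 and 56.4 RPKM in OMN and 0.940, 2.37 and 3.03 RPKM in SC samples, and the groups did not overlap. The difference was 2.89 ± 0.47 (SE), with a limma adjusted p of 0.0114, and it remained under 0.05 on leaving out each of the 12 samples (highest 0.0399). It was 1 of 10 factors called, against 0.603% of the 19240 genes tested, and 6 factors had an unadjusted p under 0.05, against 10.1% of all genes. The difference was 3.46 among samples numbered 1 to 4 and 1.76 among those numbered 5 and 6, and 2.77 without the SC sample numbered 4.

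In the GFP-negative groups Nkx6-2 was 0.217, 15.9 and 52.5 RPKM in OMN and 1.56, 3.76 and 5.57 RPKM in SC samples. Of the 6 OMN samples 4 lay above every SC sample, and those numbered 5 and 6 held 0.217 and 2.28 RPKM. The difference was 1.23 ± 0.66 (SE; limma adjusted p = 0.499), being 2.20 among samples numbered 1 to 4 and −0.71 among those numbered 5 and 6, and 1.14 without the SC samples numbered 4. Within OMN cultures the difference between fractions was 1.08 ± 0.66 (SE), with a limma adjusted p of 0.442 and of 0.0334 with pairing. The ratio of Nkx6-1 to Nkx6-2 was 4.80 to 9.53 in OMN GFP-positive samples and 4.42 to 42.5 in SC GFP-positive samples.

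**Figure D2:**
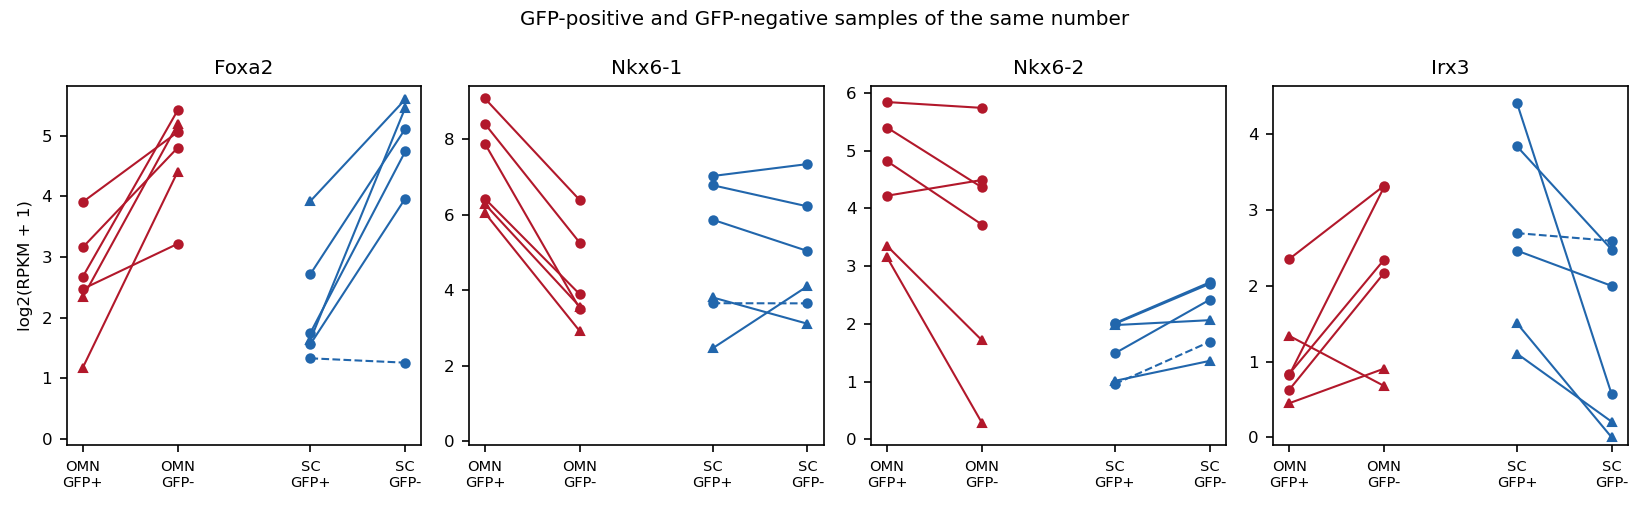
log2(RPKM + 1) of Foxa2, Nkx6-1, Nkx6-2 and Irx3 in GFP-positive and GFP-negative samples, lines joining samples of the same culture type and number (circles 1 to 4, triangles 5 and 6, dashed line the SC samples numbered 4). Foxa2 rises toward GFP- in 6 of 6 OMN and 5 of 6 SC pairs, Nkx6-1 falls toward GFP- in 6 of 6 OMN pairs, and Irx3 falls toward GFP- in 6 of 6 SC pairs.

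**Figure D3:**
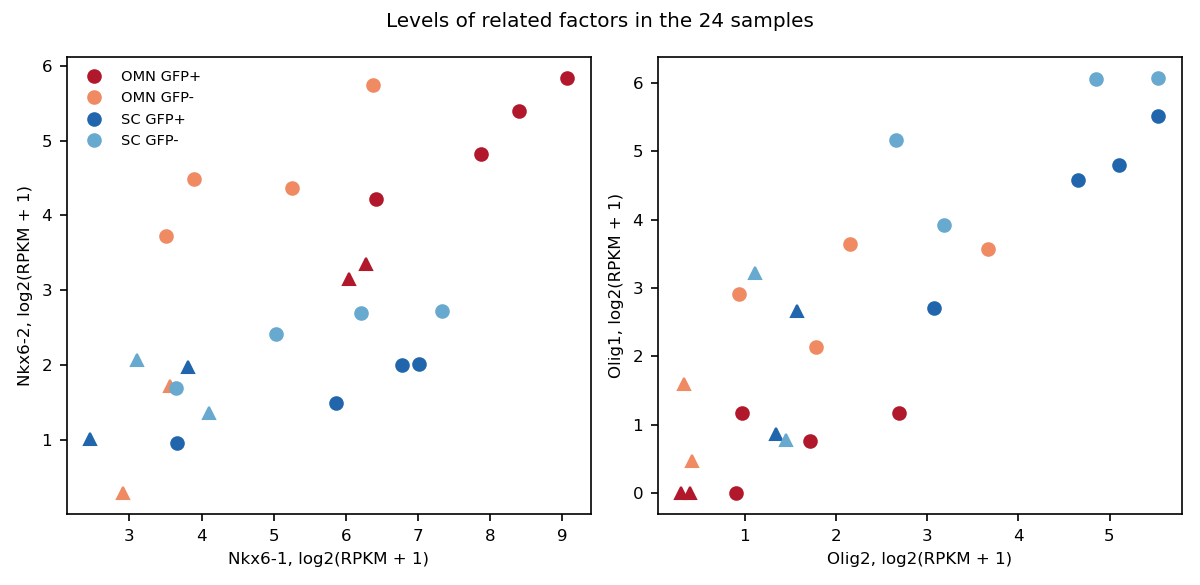
log2(RPKM + 1) of Nkx6-2 against Nkx6-1 (left) and of Olig1 against Olig2 (right) in the 24 samples, coloured by group, with circles for samples numbered 1 to 4 and triangles for 5 and 6. At a like level of Nkx6-1, OMN GFP+ samples lie above SC GFP+ samples in Nkx6-2. OMN GFP+ samples lie at the low end for Olig1 (at most 1.27 RPKM). Their Olig1 and their Olig2 (0.238 to 5.46 RPKM) both overlap every other group.

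Pax6, the paired-domain factor found from pMN dorsally, was low throughout on the per-length scale. It was 0.0535, 0.208 and 0.589 RPKM in OMN GFP-positive and 0.709, 1.19 and 5.01 RPKM in OMN GFP-negative samples, and these groups did not overlap. The difference was −1.03 ± 0.41 (SE), with a limma adjusted p of 0.154 and of 0.0238 with pairing. Between the GFP-positive groups it was −0.98 ± 0.27 (SE; limma adjusted p = 0.152; −0.83 without the SC sample numbered 4), and 5 of the 6 OMN samples lay below every SC sample. The OMN GFP-positive values rest on 3 to 32 reads each. Pax6 also marks forebrain and eye: of 7 genes of those tissues, 1 was higher in OMN than SC GFP-negative samples, Six3 (0.76 ± 0.16 SE, limma adjusted p = 0.0188).

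Irx3, the Iroquois repressor of p2 and above that meets Olig2 at the pMN border, differed with opposite signs in the cultures, and neither difference passed the test. In spinal cultures it was 1.15, 4.99 and 20.3 RPKM in GFP-positive and 0, 1.74 and 5.03 RPKM in GFP-negative samples, higher in the GFP-positive sample in 6 of 6 pairs. The difference was 1.36 ± 0.61 (SE), with a limma adjusted p of 0.424, and 1.62 without those numbered 4. Irx3 had 59 reads in each SC sample numbered 4, and 3 of the SC GFP-negative values rested on 5 or fewer reads. In OMN cultures it was 0.367, 0.777 and 4.11 RPKM in GFP-positive and 0.601, 3.78 and 8.97 RPKM in GFP-negative samples, a difference of −1.05 ± 0.61 (SE; limma adjusted p = 0.409). It was lower in the GFP-positive sample in 5 of 6 pairs, and the difference was −1.62 among samples numbered 1 to 4 and 0.10 among those numbered 5 and 6. The difference of these steps was −2.41 ± 0.86 (SE, limma adjusted p = 0.408), or −2.66 without those numbered 4. The SC difference and that of the steps passed under no alternative fit (lowest limma adjusted p 0.0789 and 0.0598). Irx3os, an antisense gene beside Irx3, was counted without strand, so reads of overlapping antisense genes cannot be told apart; the same holds for Nkx2-2 and Nkx2-2os.

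Of 7 other genes of the p2, p1 and p0 domains, 1 was lower in OMN than SC GFP-positive samples, the zinc finger factor Sp8 (−4.31 ± 0.73 SE, limma adjusted p = 0.0151; −4.87 without the SC sample numbered 4), and none was higher. Of all genes tested, 0.603% were called between the GFP-positive groups. With samples numbered 1 to 4 alone the limma adjusted p of Sp8 was 0.261. Sp8 was 0, 0.309 and 3.75 RPKM in OMN and 3.43, 43.1 and 136 RPKM in SC samples. None of the 7 passed in the other comparisons (1 was lower between the GFP-negative groups without those numbered 4), and none of 8 dorsal genes such as Pax3 and Pax7 passed in any.

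Dbx1, the p0 factor, appeared in few samples. Its 4 highest values were 9.42 RPKM (OMN GFP-negative replicate 5), 7.34 RPKM (SC GFP-negative replicate 2), 5.96 RPKM (SC GFP-negative replicate 4) and 5.39 RPKM (SC GFP-positive replicate 4), and it was listed at 0 in 10 of 24 samples. Dbx2, of p1 and p0, was at most 0.592 RPKM and was listed at 0 in 13 samples, where 3 reads would have been 0.113 to 1.15 RPKM. For Dbx1 the differences between groups lay between −0.72 and −0.13 with SE of 0.43 to 0.64, and for Dbx2 within 0.06 of 0 with SE of 0.12 to 0.14.

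**Figure D4:**
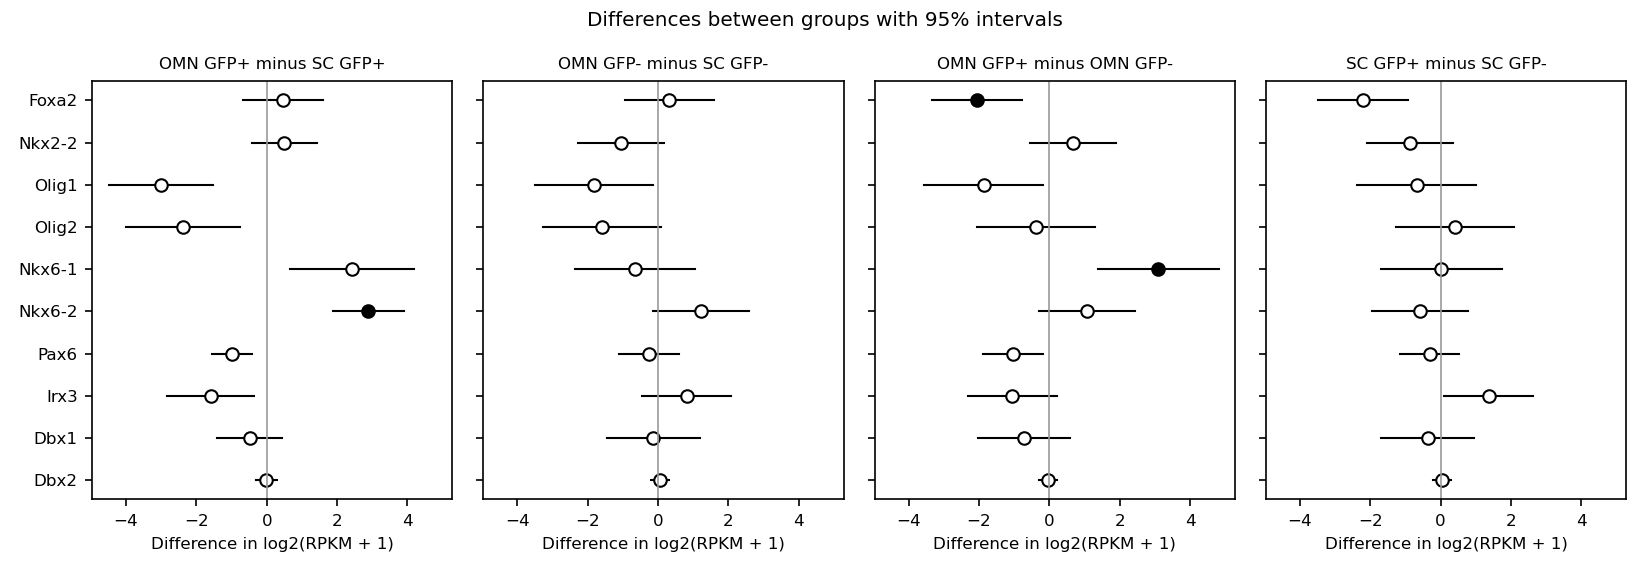
Differences in log2(RPKM + 1) between groups for the 10 factors, with 95% intervals from limma; filled circles are those with an adjusted p under 0.05. Nkx6-2 (2.89) is filled for OMN GFP+ minus SC GFP+, and Foxa2 (−2.06) and Nkx6-1 (3.09) for OMN GFP+ minus OMN GFP-.

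Other lists place the factors among the cells of each fraction. Of all genes tested, 6.15% were called between the OMN fractions and 1.23% between the SC fractions. Of 11 targets and effectors of hedgehog signaling, 1 was lower in OMN GFP-positive than GFP-negative samples, the effector Gli2 (−1.32 ± 0.34 SE, limma adjusted p = 0.0175), and none passed in the other 4 comparisons. That 1 of 11 was near the share of all genes. Of 11 general progenitor markers 3 were lower in OMN GFP-positive than GFP-negative samples, Sox2 by −2.97 ± 0.54 (SE) and Hes1, a Notch target, by −2.66 ± 0.61 (SE), and 0 passed between the SC fractions (1, lower, without those numbered 4). Of 10 cell cycle genes 5 were lower in OMN GFP-positive samples, Mcm5 by −2.11 ± 0.58 (SE) and Ccnb1 by −2.11 ± 0.59 (SE), and 0 passed between the SC fractions. Sox9, a glial and progenitor factor, was lower in OMN than SC samples in the GFP-positive (−2.23 ± 0.45 SE) and GFP-negative (−2.37 ± 0.54 SE) fractions (−2.65 and −2.87 without those numbered 4).

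Motor neuron and neuron genes moved the other way. Of 10 motor neuron genes 7 were higher in OMN GFP-positive than GFP-negative samples and 5 in the SC comparison, against 6.15% and 1.23% of all genes called. Of 8 neuronal genes 7 and 4 were higher. None was lower. Without both SC samples numbered 4 the SC counts were 6 and 5, but in a fit of the 12 SC samples alone, and with samples numbered 1 to 4 alone, 0 of these 10 and 0 of these 8 genes passed between the SC fractions, where 4 genes and 1 gene of all those tested passed. Isl1, a motor neuron homeodomain factor, differed by 6.79 ± 0.51 (SE) in OMN and 3.32 ± 0.51 (SE) in SC cultures. The difference of those steps passed the test (3.47 ± 0.73 SE, limma adjusted p = 0.0306), as it did for the neuronal RNA-binding protein Elavl4 (2.83 ± 0.59 SE). OMN cells were sorted on Islet1-GFP and SC cells on Hb9-GFP. Differences in Isl1 and Mnx1, also between the cultures, are therefore checks of the sort and no separate result. The motor neuron counts above include both genes. OMN cells carried Phox2a as a transgene, so its difference between the cultures is likewise a check of the labels. The Isl1 call held in 11 of 24 fits that each left out 1 sample (adjusted p up to 0.0642) and that of Elavl4 in 17 of 24 (up to 0.0636); without both SC samples numbered 4 the differences were 2.77 and 2.44. The transporter Slc18a3 (4.65 ± 0.66 SE), Tubb3 (6.16 ± 0.68 SE) and Elavl4 (4.97 ± 0.41 SE) were higher in OMN GFP-positive than GFP-negative samples, and Mnx1 (4.02 ± 0.66 SE), Stmn2 (2.94 ± 0.71 SE) and Tubb3 (2.77 ± 0.68 SE) in the SC comparison (4.96, 3.56 and 3.42 without those numbered 4). Between the GFP-positive groups Phox2a was higher (3.46 ± 0.66 SE) and Mnx1 (−5.00 ± 0.49 SE) and Lhx3 (−4.49 ± 0.69 SE) were lower in OMN samples. The calls of Mnx1 and Lhx3 held in 12 of 12 fits that each left out 1 sample, and that of Phox2a in 4 of 12 (adjusted p up to 0.0897), being lost without the SC sample numbered 4 (3.31, adjusted p = 0.0608).

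The genes most like each factor over the 24 samples, by Pearson r of log2(RPKM + 1), were Prex1 (0.932), Ppp6r2 (0.904) and Igdcc3 (0.902) for Nkx6-1, Moxd1 (0.910), Slc39a14 (0.906) and Emid1 (0.885) for Olig1, and Lpp (0.887), Timp3 (0.866) and Rcn1 (0.856) for Foxa2. For Nkx6-2 they were Mid1 (0.859), Wars (0.854) and Mark3 (0.853), for Olig2 Slc39a14 (0.880), Specc1 (0.877) and Metap1 (0.873), and for Pax6 Slc39a14 (0.853), Socs3 (0.839) and Yap1 (0.838). For Irx3 they were Kif21b (0.821), Xpnpep3 (0.818) and Zfp598 (0.814), for Nkx2-2 Rap2a (0.757), Slc39a9 (0.753) and Dchs2 (0.735), and for Dbx1 Gm38069 (0.833), Gm25820 (0.813) and Acoxl (0.785). Samples of a group share culture and fraction, so these values describe the 24 samples only.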

How the data were processed

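Gene expression was measured by SMART-seq2 on poly(A) RNA without molecular identifiers or strand, in 24 samples of 4 groups. Per the labels and methods, reads were aligned with HISAT2 2.0.3 to mm10 (GRCm38), and the authors deposited RPKM values made with rpkmforgenes. The gene annotation is not given in the sources used here. Whole reads were recovered from RPKM steps of 5911 genes with 1 transcript (95.9% to 97.8% of values under 10 reads came out whole within 2% of the number); a value of 0 is limited by 3 reads, which covers counting error only. Genes above 0 RPKM in at least 2 samples were fitted as log2(RPKM + 1) with limma, with Benjamini-Hochberg adjustment over all genes tested at 0.05. The GFP-positive comparison used its 12 samples, the other comparisons all 24. A fold change on this scale understates changes of low genes. In simulated data 107 to 118 of 200 changed genes were called in the 4 group comparisons and 34 in the difference of steps. Same-numbered fractions of a culture deviated together (r of 0.379 to 0.728 in OMN and 0.421 to 0.661 in SC), so paired values are given for some of the factors. The factors, the gene lists and the rules for them were chosen with earlier results of these data known. All 10 factors are named in each comparison; from each list, the up to 2 genes with the largest change in each direction among those called, except results that are not reported here. Nothing was left out of the table, and 0 columns were unmapped.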

Additional observations from a re-analysis of the deposited data

Results flagged for a closer look

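Of 40 sets of 6 values (10 factors in 4 groups), 8 held a sample far from the others by Dixon's criterion. Chance gives about 1 in 20 for normally distributed values, which right-skewed RPKM values are not, and in all 8 it was the highest value that stood apart. SC GFP-positive replicate 6 had 14.1 RPKM of Foxa2 (next 5.57) and also 40.1 RPKM of the floor plate gene Shh. OMN GFP-negative replicate 1 had 11.7 RPKM of Olig2 (next 3.46) and 5.01 RPKM of Pax6 (next 1.77). OMN GFP-positive replicate 3 had 4.11 RPKM of Irx3 (next 1.53). OMN GFP-positive replicate 1 had 1.75 RPKM of Dbx1 (next 0.260) and 0.560 RPKM of Dbx2 (next 0.0905). SC GFP-positive replicate 4, the library whose neuronal genes are low for its label, had 5.39 RPKM of Dbx1 (next 1.19) and 0.592 RPKM of Dbx2 (next 0.124).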

How the results depend on the processing

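The call of Nkx6-2 between the GFP-positive groups held under every alternative run. The number of factors called there was 2 with an offset of 0.1 RPKM (229 of 19240 genes called). It was also 2 with a filter at a mean of 1 RPKM (193 of 11853) and with sample quality weights (260 of 19240). It was 3 with the replicate set (1 to 4, or 5 and 6) as a covariate (191 of 19240), and 1 to 2 on leaving out single samples (67 to 181 genes). Apart from leaving out single samples, the further factors were Olig1 in 4 of 10 alternatives and Olig2 in 1. Both were lower in OMN samples (lowest limma adjusted p 0.0203 and 0.0481). With the replicate block the number of factors called was 1 (73 of 19240). Between the GFP-negative groups it was then also 1 (Olig1, limma adjusted p = 0.0383, 563 of 22179 genes), where numbers did not pair samples across cultures. Between the OMN fractions it was 4 with weights (3795 of 22179 genes), with the replicate set (2116 of 22179) or in a fit of the 12 OMN samples (2388 of 18932). It was 0 with samples numbered 1 to 4 only (476 of 20942). With the replicate block it was 5 (3644 of 22179), also without both SC samples numbered 4 (3666 of 21837), an alternative chosen after seeing the data. On leaving out single samples it was 0 to 2 (1017 to 1558 genes). Between the SC fractions it was 1 without both samples numbered 4 (633 of 21837), 1 with the block (649 of 22179) and 1 with both (1238 of 21837). On leaving out single samples it was 0 to 1 (186 to 634 genes). The difference of steps gave 1 with the block (453 of 22179), and 1 with both (499 of 21837). Over all genes, calls ranged from 30 to 342 (116 as reported), 39 to 650 (213), 476 to 3795 (1364), 1 to 1238 (272) and 10 to 499 (71) in the 5 comparisons, and the cause was not tested. Of 50 factor results 34 kept their direction throughout. With quality weights the sign turned for Foxa2 in both comparisons of cultures (−0.14 and −0.067) and in the difference of steps (−0.079), for Dbx1 between GFP-negative groups (0.56) and SC fractions (0.031), for Dbx2 between GFP-positive groups (0.088), OMN fractions (0.021) and steps (0.0019), and for Olig2 (−0.33) and Nkx6-1 (−0.36) between SC fractions. Median-of-ratios scaling turned Nkx6-1 between SC fractions (−0.080), and samples numbered 1 to 4 alone turned Dbx1 between OMN fractions (0.36) and steps (1.04). Without both SC samples numbered 4 it turned for Foxa2 (−0.29) and Dbx1 (0.20) between GFP-negative groups and for Dbx2 between GFP-positive groups (0.094) and SC fractions (−0.023, also −0.023 with the block). On leaving out single samples the sign turned in Foxa2 between GFP-negative groups (−0.29 to 0.62) and steps (−0.15 to 0.76), Pax6 between GFP-negative groups (−0.54 to 0.014), Olig2 between OMN fractions (−0.69 to 0.039), Nkx6-1 between SC fractions (−0.40 to 0.52), Dbx1 between GFP-negative groups (−0.61 to 0.25), SC fractions (−0.75 to 0.011) and steps (−0.73 to 0.13), and Dbx2 between GFP-positive groups (−0.11 to 0.094), GFP-negative groups (−0.0085 to 0.10), OMN fractions (−0.14 to 0.031), SC fractions (−0.072 to 0.083) and steps (−0.17 to 0.038). Among list genes, the calls of Pdgfra between GFP-negative groups and of Sox9 between GFP-positive groups were lost on leaving out most single samples, as were those of Phox2a between GFP-positive groups and of Isl1 in the difference of steps. Depth limits Dbx1, Dbx2 and the OMN GFP-positive values of Olig1, Olig2, Pax6 and Irx3 (medians of 3.5, 5.5, 7 and 7.5 reads). It also limits the SC GFP-negative values of Irx3 (median of 8.5 reads).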
